A study of Mus musculus with 12 samples.

Results

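Crisp3, Rnf150, Pglyrp1, Nfam1, Sema5a, Anxa1, Adgre1 and Wnt1 are 8 genes of the 54532 in the deposited count table. They were chosen by their large falls in wild type mouse B lymphocytes treated with cGAMP, so their change in wild type cells is described here and is not tested. RNA was sequenced from B lymphocytes sorted from 3 mice labelled Tmem173-/- and 3 wild type mice, with poly-A selection. Tmem173 encodes STING, the receptor on the endoplasmic reticulum that binds cyclic dinucleotides and starts the type I interferon and NF-kB responses, and 3'3'-cGAMP is such a dinucleotide of bacterial origin. The 12 libraries form 4 groups of 3, all of primary cells in culture. They are Tmem173-/- cells after 12 h with cGAMP, Tmem173-/- control cells, wild type cells after 12 h with cGAMP, and wild type control cells. Neither the kind of Tmem173 mutation, nor the age or strain of the mice, nor what the control wells received is given in the sources used here. Column names of the libraries labelled Tmem173-/- begin with GT, and the labels do not explain these letters. The labels name 3 mice of each genotype and do not say which libraries share a mouse, so the p-values below measure the spread between libraries.

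The 8 genes belong to no single pathway. Crisp3, Pglyrp1 and Wnt1 encode secreted proteins, Nfam1, Adgre1 and Sema5a encode proteins of the cell surface, Rnf150 encodes a membrane protein with a RING finger, and Anxa1 encodes an annexin. CRISP proteins are cysteine-rich secretory proteins of the CAP superfamily, and peptidoglycan recognition protein 1 binds bacterial cell walls; both are known from neutrophil granules, CRISP3 in humans. NFAM1 carries an immunoreceptor tyrosine-based activation motif (ITAM), the sequence through which the B cell receptor also recruits the kinase SYK, and it activates the transcription factor NFAT. Adgre1 encodes F4/80, an adhesion G protein-coupled receptor that is widely used to mark mouse macrophages. Semaphorin 5A is a guidance protein with thrombospondin repeats, annexin A1 is a calcium-dependent phospholipid-binding protein that acts on formyl peptide receptors and restrains inflammation, and WNT1 is a founding ligand of the Wnt pathway.

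Total assigned counts were 26490593 to 31417833 per library. In the libraries labelled Tmem173-/-, Tmem173 RNA itself averaged 93.3 ± 9.45 CPM (counts scaled to the TMM-adjusted library total) after cGAMP and 92.7 ± 11.5 CPM in controls, against 47.3 ± 2.37 CPM in wild type cGAMP and 95.3 ± 5.95 CPM in wild type control (SD, n = 3 each). The RNA level therefore does not check the genotype label, and what follows speaks of cells labelled Tmem173-/-. All 7 B cell markers listed were detected in every group, with summed levels of 4908 to 5954 CPM in labelled Tmem173-/- cGAMP, 4979 to 5681 CPM in labelled Tmem173-/- control, 3359 to 4107 CPM in wild type cGAMP and 4722 to 5711 CPM in wild type control. Wild type replicate 1 stood apart by neutrophil transcripts. S100a9 reached 7.90 CPM in its cGAMP library and 3.81 CPM in its control library, and at most 0.442 CPM in any other library. Values without both libraries of that number are given where they bear on a result.

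Sequences were read for the places where the neighbourhood of a gene entered the results. The Crisp3 and Crisp1 promoters are shown because both genes, paralogs on chromosome 17, were lower in wild type cells after cGAMP. They are the 250 bases before each RefSeq start on GRCm38.p6, minus strand, at chr17:40242289-40242538 and chr17:40319208-40319457. Capitals mark a TATA box (TATAAA) and an E-box (CAGCTG).
Crisp3: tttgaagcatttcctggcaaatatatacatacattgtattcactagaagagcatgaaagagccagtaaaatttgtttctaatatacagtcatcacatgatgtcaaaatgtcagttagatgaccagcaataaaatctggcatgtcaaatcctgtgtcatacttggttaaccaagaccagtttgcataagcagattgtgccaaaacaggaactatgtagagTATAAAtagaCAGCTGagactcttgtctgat
Crisp1: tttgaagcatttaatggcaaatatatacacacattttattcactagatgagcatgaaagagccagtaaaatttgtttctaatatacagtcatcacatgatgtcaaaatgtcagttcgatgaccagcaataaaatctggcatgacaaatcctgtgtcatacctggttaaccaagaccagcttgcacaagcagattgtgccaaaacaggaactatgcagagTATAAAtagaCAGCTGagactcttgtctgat
The windows differed at 11 of 250 positions, and the 35 bases next to the start were identical. Both carry the TATA box at positions -31 to -26 and the E-box at -21 to -16, counted back from the first transcribed base. The interval between Snhg18 and Sema5a is shown because these genes start on opposite strands 147 bases apart and both were lower. It lies at chr15:32244663-32244809, plus strand, and capitals mark CG dinucleotides.
Snhg18 to Sema5a: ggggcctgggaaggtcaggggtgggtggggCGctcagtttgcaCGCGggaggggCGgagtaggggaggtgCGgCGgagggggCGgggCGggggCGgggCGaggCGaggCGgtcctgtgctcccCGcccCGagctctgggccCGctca
This interval had a GC content of 78.9% and 15 CG dinucleotides.

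In wild type cells each of the 8 genes was lower in all 3 cGAMP libraries than in all 9 other libraries of the series. That arrangement held for 22.2% of the 14473 genes tested, and 25.4% of them were significantly lower in wild type cGAMP than in wild type control (edgeR quasi-likelihood test, adjusted p under 0.05). Since these 8 were chosen by this contrast, nothing is read from their count of 8 of 8. All 8 passed the filter on low counts. The part of the wild type control mean left after cGAMP ran from 3.31% for Rnf150 to 15.2% for Wnt1, and the median log2 fold change of the 8 was -3.06, against -0.00 over all genes tested. The plot of levels by library shows the same gap in each of the 8 panels. In a bulk sample, fewer cells of a type and less RNA per cell cannot be told apart.

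**Figure D1:**
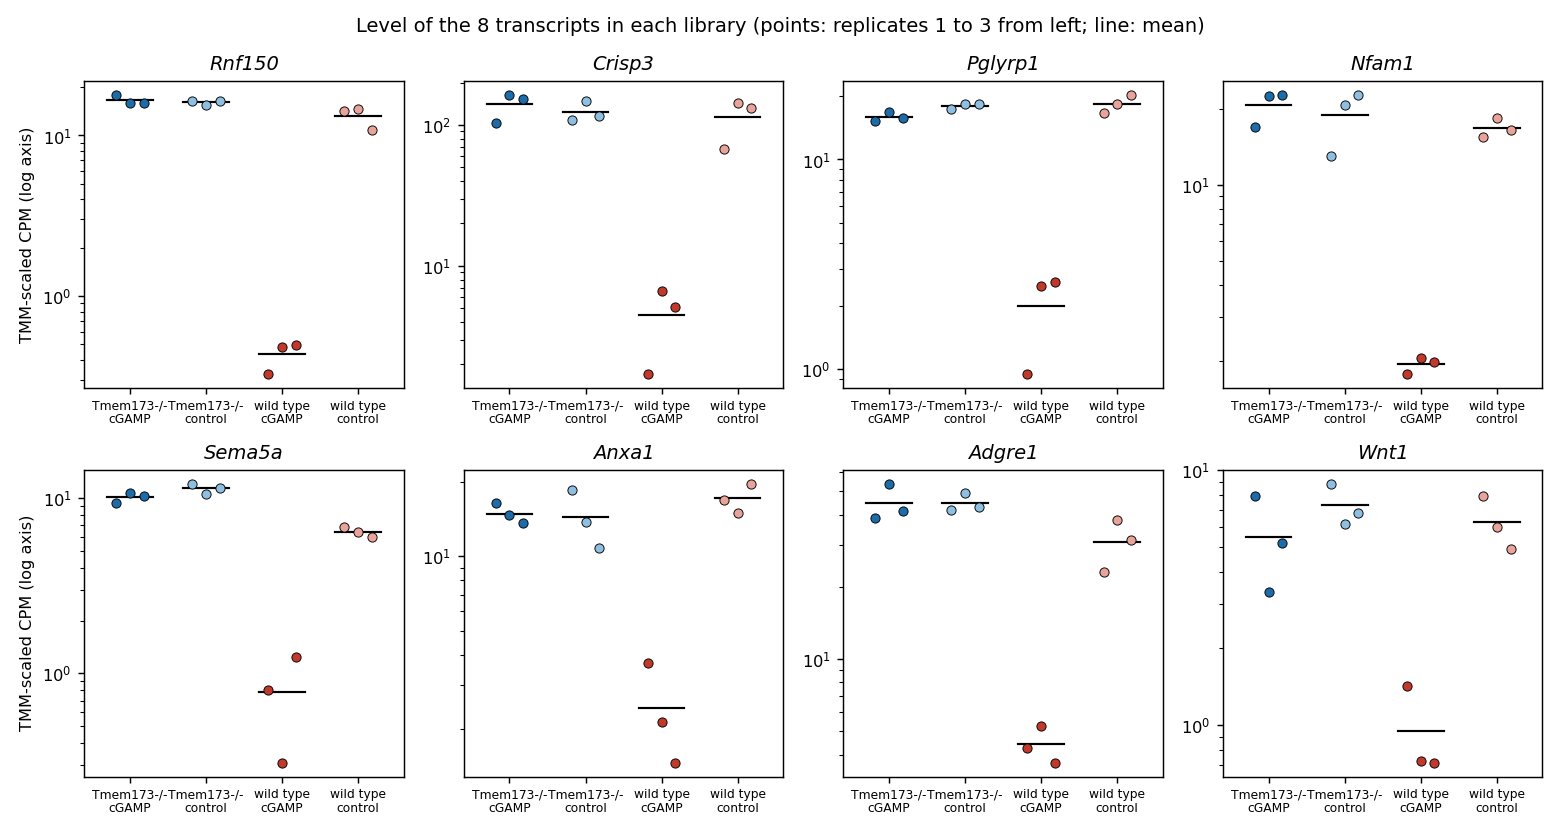
TMM-scaled CPM (log axis) of each of the 8 genes in all 12 libraries, grouped as Tmem173-/- cGAMP, Tmem173-/- control, wild type cGAMP and wild type control. Points are replicates 1 to 3 from left and lines are means of 3; in every panel the 3 wild type cGAMP libraries lie below the other 9.

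The fitted falls place the choice in context. Among genes past the threshold with at least 5 CPM in wild type control and no overlap between the groups, ordered by fitted fall, Rnf150 ranked 1, Crisp3 2 and Wnt1 12, the last with a log2 fold change of -2.72. Genes ranked between them that were not among the chosen 8 were Ccr1, 2900026A02Rik, Gm34215 and Bmf. Just below Wnt1 stood Hepacam2 (-2.72), Nid1 (-2.70), Spns3 (-2.65) and Sirpa (-2.52). The lower end of the list is therefore not set off by a gap in size.

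Among the secreted proteins, Crisp3 (ENSMUSG00000025433, chr17:40221777-40242288, minus strand) was measured at 103, 163 and 153 CPM in labelled Tmem173-/- cGAMP and 109, 148 and 117 CPM in labelled Tmem173-/- control. In wild type cGAMP it stood at 1.71, 6.68 and 5.13 CPM, against 67.4, 144 and 132 CPM in wild type control. The wild type cGAMP libraries stood at least 10.1-fold below every other library, while the other 3 groups overlapped. The fitted log2 fold change in wild type cells was -4.66 (SE 0.48), the second largest of the 8 and the one with the largest error. Replicate 1 was the lowest library in all 4 groups. Reads of Crisp3 and Crisp1 may be shared, since their longest protein-coding transcripts are 88.8% identical with an identical run of 70 bases, so the split of counts between the pair is uncertain.

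Pglyrp1 (ENSMUSG00000030413, chr7:18871331-18890459, plus strand) had 15.3, 16.8 and 15.8 CPM in labelled Tmem173-/- cGAMP and 17.5, 18.3 and 18.4 CPM in labelled Tmem173-/- control. In wild type cells it had 0.946, 2.48 and 2.60 CPM after cGAMP, against 16.7, 18.3 and 20.3 CPM in control. The wild type log2 fold change was -3.19 (SE 0.22). It was the only one of the 8 whose labelled Tmem173-/- cGAMP libraries all lay below the labelled Tmem173-/- control libraries, by a log2 fold change of -0.18. Groups with no overlap in either direction were found for 6.64% of all genes tested in that comparison.

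Crisp3, through its human counterpart, and Pglyrp1 are also known from neutrophils. A list of 14 other neutrophil markers was near the floor in most libraries, so it could hardly have fallen with these 2 genes. It summed to 0.0372 to 1.94 CPM in labelled Tmem173-/- cGAMP, 0.0327 to 0.730 CPM in labelled Tmem173-/- control, 0.448 to 29.1 CPM in wild type cGAMP and 0.0704 to 10.8 CPM in wild type control. The upper ends of both wild type ranges came from replicate 1. Of the 14 markers, 2 had enough counts to be tested and neither passed. Whether neutrophils added to the RNA of Crisp3 or Pglyrp1 was not tested. Without both wild type libraries numbered 1, Crisp3 kept 4.27% and Pglyrp1 13.1% of the wild type control level after cGAMP. In replicate 1 alone they kept 2.54% and 5.65%.

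Wnt1 (ENSMUSG00000022997, chr15:98789857-98793837, plus strand) had 7.93, 3.33 and 5.20 CPM in labelled Tmem173-/- cGAMP and 8.86, 6.18 and 6.79 CPM in labelled Tmem173-/- control. Wild type cGAMP libraries had 1.42, 0.723 and 0.712 CPM, against 7.94, 5.98 and 4.91 CPM in wild type control. The wild type log2 fold change was -2.72 (SE 0.34). The gap between the highest wild type cGAMP library and the lowest other library was 2.34-fold, the narrowest of the 8.

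Among the surface proteins, Nfam1 (ENSMUSG00000058099, chr15:82992973-83033306, minus strand) had 16.9, 22.5 and 22.6 CPM in labelled Tmem173-/- cGAMP and 13.0, 20.7 and 22.6 CPM in labelled Tmem173-/- control. Wild type cGAMP libraries had 1.78, 2.07 and 1.99 CPM, against 15.5, 18.4 and 16.4 CPM in wild type control. The 3 wild type cGAMP libraries were close to each other (1.95 ± 0.147 CPM, SD, n = 3) and at least 6.30-fold below every other library. The wild type log2 fold change was -3.10 (SE 0.21).

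Adgre1 (ENSMUSG00000004730, chr17:57358691-57483527, plus strand) had 38.9, 53.9 and 41.5 CPM in labelled Tmem173-/- cGAMP and 42.0, 49.2 and 43.2 CPM in labelled Tmem173-/- control. In wild type cells it had 4.26, 5.27 and 3.70 CPM after cGAMP, against 23.1, 38.0 and 31.4 CPM in control, a log2 fold change of -2.80 (SE 0.19). Other macrophage and monocyte markers differed in level. Cd68, a lysosomal protein of macrophages, averaged 4.34 ± 0.310 CPM in labelled Tmem173-/- cGAMP, 4.52 ± 1.27 CPM in labelled Tmem173-/- control, 4.90 ± 0.516 CPM in wild type cGAMP and 4.70 ± 0.776 CPM in wild type control (SD, n = 3 each). Lyz2, which encodes lysozyme, had 136 counts in labelled Tmem173-/- cGAMP, 196 in labelled Tmem173-/- control, 490 in wild type cGAMP and 273 in wild type control. Neither passed in wild type cells, with log2 fold changes of 0.06 for Cd68 and 0.84 for Lyz2. Mertk had 1 count in the whole series, C1qa and C1qb had at most 9 counts in any group, and Csf1r had 99 counts in labelled Tmem173-/- cGAMP, 85 in labelled Tmem173-/- control, 59 in wild type cGAMP and 93 in wild type control. The 14 markers of that list summed to 9.42 to 10.6 CPM in labelled Tmem173-/- cGAMP, 8.40 to 11.2 CPM in labelled Tmem173-/- control, 32.5 to 54.7 CPM in wild type cGAMP and 10.7 to 16.2 CPM in wild type control. The higher sum in wild type cGAMP came mostly from Ly6c2, the 1 of its 5 tested genes that passed. Ly6c2 had 34.0 ± 8.04 CPM there, against 3.77 ± 2.69 CPM in wild type control. Csf1r had a log2 fold change of -0.64 in wild type cells and did not pass. The sum therefore speaks mainly of Ly6c2. Of 10 eosinophil, basophil and mast cell markers 3 were tested. Siglecf fell, with 13 counts in wild type cGAMP against 83 in wild type control, a log2 fold change of -2.64. It had 93 counts in labelled Tmem173-/- cGAMP and 69 in labelled Tmem173-/- control. Kit rose (2.01), Prg2 did not pass (0.39), and Epx had 0 counts in every group. Which cells held the Adgre1 RNA was not tested.

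Sema5a (ENSMUSG00000022231, chr15:32244810-32696341, plus strand) had 9.38, 10.7 and 10.3 CPM in labelled Tmem173-/- cGAMP and 12.1, 10.6 and 11.4 CPM in labelled Tmem173-/- control. In wild type cells it had 0.801, 0.310 and 1.25 CPM after cGAMP, against 6.84, 6.44 and 5.97 CPM in control. The wild type log2 fold change was -3.03 (SE 0.27). The labelled Tmem173-/- controls lay above the wild type controls without overlap, by a log2 difference of 0.82. Rnf150 (0.28) and Adgre1 (0.54) were likewise higher without overlap, and the other 5 overlapped. Such a separation of the 2 control groups, in either direction, was found for 9.09% of all genes tested, and no test is given for the 8 because wild type controls took part in choosing them.

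Rnf150 (ENSMUSG00000047747, chr8:82863356-83091268, plus strand), a member of the PA-TM-RING ubiquitin ligases, had the widest separation. Its level was 17.9, 15.9 and 15.8 CPM in labelled Tmem173-/- cGAMP and 16.3, 15.5 and 16.3 CPM in labelled Tmem173-/- control. Wild type cGAMP libraries had 0.328, 0.482 and 0.499 CPM, against 14.2, 14.5 and 10.8 CPM in wild type control. Summed counts were 37 in wild type cGAMP and 1118 in wild type control. The wild type log2 fold change was -4.90 (SE 0.19), and every other library was at least 21.6-fold above the highest wild type cGAMP library. Antisense and pseudogene annotations inside Rnf150 and Sema5a held at most 10 counts in any group.

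Anxa1 (ENSMUSG00000024659, chr19:20373428-20390944, minus strand) had 16.4, 14.6 and 13.6 CPM in labelled Tmem173-/- cGAMP and 18.5, 13.8 and 10.8 CPM in labelled Tmem173-/- control. After cGAMP, wild type cells had 3.71, 2.13 and 1.46 CPM, against 16.9, 15.0 and 19.7 CPM in wild type control. The wild type log2 fold change was -2.82 (SE 0.27). Anxa1 kept 21.9% of the control level in wild type replicate 1 alone, and 10.4% without that number. Adgre1 kept 18.5% in replicate 1 and 12.9% without it, Wnt1 17.9% and 13.2%, Nfam1 11.5% and 11.7%, Sema5a 11.7% and 12.5%, and Rnf150 2.30% and 3.87%. Leaving out the libraries with neutrophil transcripts thus left each of the 8 at no more than 13.2% of its control level.

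Levels between genes were set side by side only per length, as the deposited FPKM. In labelled Tmem173-/- cGAMP the FPKM of Crisp3 was 98.8 ± 22.4, and in labelled Tmem173-/- control it was 88.5 ± 15.7 (SD, n = 3). In wild type control Crisp3 led with 78.4 ± 28.3 FPKM, followed by Anxa1 (25.6 ± 2.24) and Pglyrp1 (25.5 ± 1.55), which do not differ beyond their spread, and by Adgre1 (18.7 ± 4.85). Nfam1 (4.60 ± 0.550) stood between these and the low group of Wnt1 (2.58 ± 0.718), Rnf150 (2.04 ± 0.419) and Sema5a (1.58 ± 0.178), where neighbouring levels overlap within their spread. In wild type cGAMP, Anxa1 (3.82 ± 1.83), Crisp3 (3.24 ± 1.83), Pglyrp1 (2.91 ± 1.33) and Adgre1 (2.80 ± 0.512) were within their spread of each other, and Rnf150 was lowest with 0.0703 ± 0.0150 FPKM. The order depends on the length used, and the lengths behind the FPKM are shorter than the listed gene lengths for 6 of the 8 genes. Dividing CPM by the listed length in kilobases gives in wild type control 80.9 for Crisp3, 10.1 for Pglyrp1, 9.52 for Adgre1, 6.59 for Anxa1, 2.64 for Wnt1, 2.10 for Nfam1, 0.765 for Rnf150 and 0.343 for Sema5a, so that Anxa1 ranks behind Pglyrp1 and Adgre1, and Nfam1 behind Wnt1. By the same measure wild type cGAMP has 3.18 for Crisp3, 1.36 for Adgre1, 1.09 for Pglyrp1 and 0.934 for Anxa1, which puts Crisp3 rather than Anxa1 at the top. Crisp3 led in wild type control, and Rnf150 was lowest in wild type cGAMP, by both lengths.

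The response of cells labelled Tmem173-/- to cGAMP took no part in choosing the 8 genes, and was tested. None of the 8 passed, and none of all 14473 genes did (0% called; edgeR quasi-likelihood test with Benjamini-Hochberg adjustment). An unadjusted p under 0.05 was reached by 203 genes and by 0 of the 8, with DESeq2 and limma-voom also calling 0 genes. Those 203 are fewer than a threshold of 0.05 lets pass among 14473 genes without any effect. The p-values of this comparison thus run high, and 0 of the 8 says little about small changes. With the replicate number added to the fit as a block, 376 genes had an unadjusted p under 0.05. The median log2 fold change of the 8 was 0.02, against -0.00 over all genes, and 4 of the 8 were positive. Adjusted p was 1 for each of the 8, and unadjusted p ran from 0.177 for Wnt1 to 0.997 for Adgre1.

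The intervals of these differences set what the test leaves room for. The log2 fold change of Rnf150 was 0.04 with a 95% interval of -0.23 to 0.32, and that of Nfam1 was 0.14 (-0.22 to 0.50). Adgre1 had -0.00 (-0.35 to 0.35), Anxa1 0.05 (-0.45 to 0.54), Pglyrp1 -0.18 (-0.58 to 0.22) and Sema5a -0.17 (-0.61 to 0.27). Wider intervals belonged to Crisp3, with 0.17 (-0.72 to 1.06), and Wnt1, with -0.41 (-1.03 to 0.21). The lower bounds as ratios of cGAMP to control were 0.489 for Wnt1, 0.608 for Crisp3 and 0.654 to 0.857 for the other 6. In wild type cells Wnt1 was at 15.2% of its control level and the other 7 lower still. The plot of responses by genotype sets the estimates side by side.

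**Figure D2:**
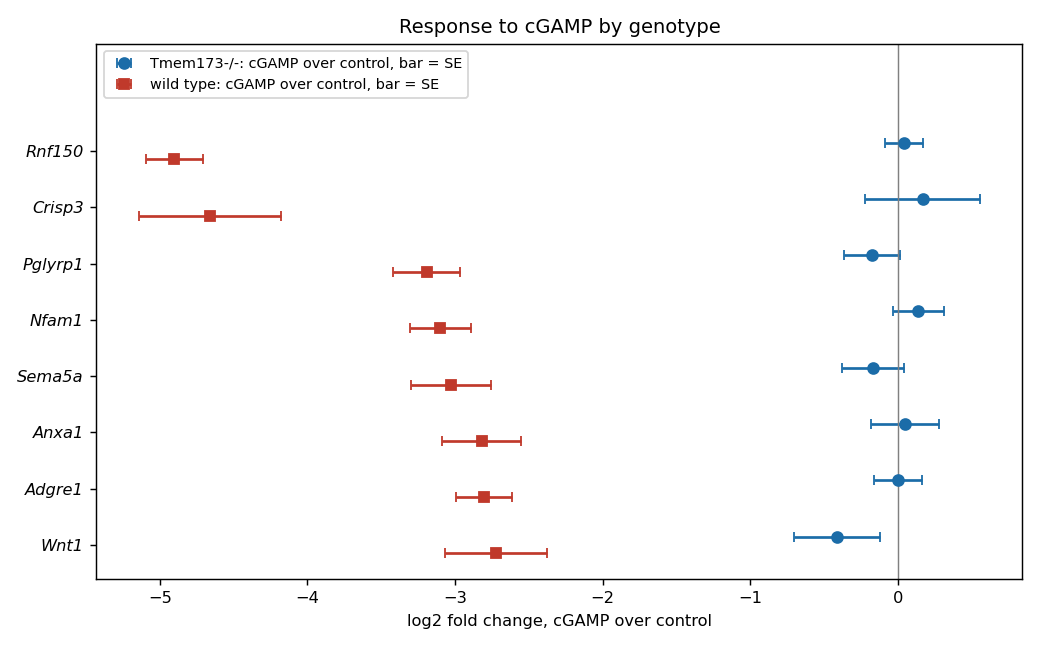
Fitted log2 fold change, cGAMP over control, in cells labelled Tmem173-/- (blue circles) and in wild type cells (red squares), with bars of 1 standard error, for each of the 8 genes. Tmem173-/- estimates lie between -0.41 and 0.17, and the wild type estimates, by which the genes were chosen, between -4.90 and -2.72.

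Relatives of the 8 genes, listed by family or pathway, were then followed in the same fit. Against the background, 25.4% of all tested genes were lower and 22.4% higher in wild type cGAMP, and the responses of the genotypes differed significantly for 31.6% of genes. In cells labelled Tmem173-/- 0 relatives passed in any list, with an adjusted p of 1 for each. The plot of relatives shows both genotypes.

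**Figure D3:**
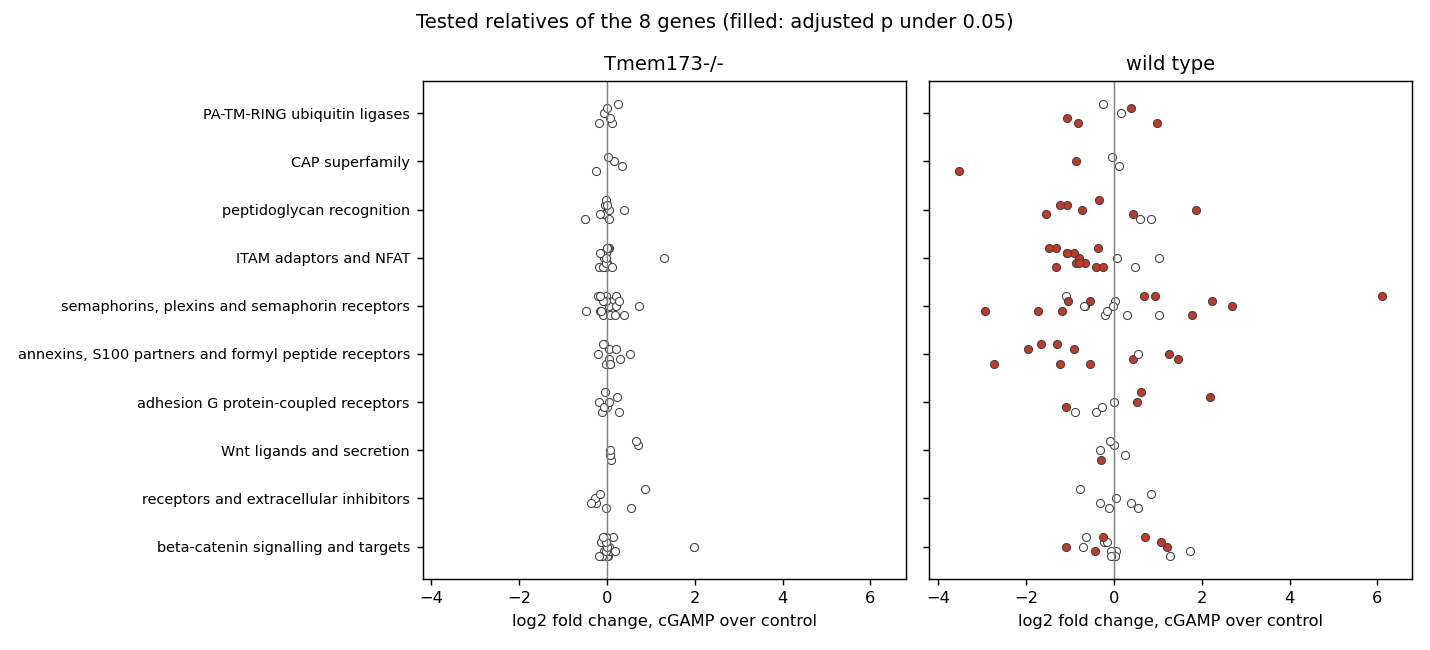
Fitted log2 fold change, cGAMP over control, of the tested relatives in 10 lists, in cells labelled Tmem173-/- (left) and wild type cells (right). Filled points have an adjusted p under 0.05, and no point on the left is filled; the rightmost point, Sema4f, rests on 2 counts in wild type control.

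In the ITAM and NFAT list, around Nfam1, 13 of 16 tested genes fell and 0 rose. The 3 that did not pass had log2 fold changes of 1.02 for Cd247, 0.49 for Fcer1g and 0.06 for Ppp3cb, and the median log2 fold change was -0.79. Syk, the kinase that binds phosphorylated ITAMs, averaged 566 ± 68.4 CPM in labelled Tmem173-/- cGAMP and 565 ± 82.9 CPM in labelled Tmem173-/- control, and 181 ± 9.29 CPM in wild type cGAMP, against 500 ± 44.2 CPM in wild type control (SD, n = 3 each). Its wild type log2 fold change was -1.47 (edgeR adjusted p = 9.18e-08). Cd79b, an ITAM chain of the B cell receptor, fell by 1.31 on the log2 scale, Tyrobp, the adaptor DAP12, by 1.33, and Rcan1, a regulator of calcineurin, by 1.07. Most markers of B cell subsets also fell, with 6 of 7 marginal zone, 4 of 5 follicular and 3 of 4 tested transitional markers lower. Cr2 is counted in both the marginal zone and the follicular list. Of 6 tested B-1 markers 3 were lower and 1, Zbtb32, was higher. Zbtb32 had 237 ± 53.7 CPM in wild type cGAMP, against 12.0 ± 3.51 CPM in wild type control. The part of B cell subsets in the result was not tested.

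In the annexin list, around Anxa1, members moved in both directions. Of 11 tested genes 7 fell, 3 rose and 1 did not pass. The 3 tested S100 genes, small calcium-binding proteins that pair with annexins, fell, with log2 fold changes of -2.74 for S100a6, -1.96 for S100a10 and -1.65 for S100a11. S100a10, the partner of annexin A2, averaged 71.1 ± 11.2 CPM in wild type cGAMP, against 276 ± 45.6 CPM in wild type control. Anxa2 itself rose, with 34.2 ± 7.89 CPM in wild type cGAMP, against 12.3 ± 3.54 CPM in wild type control, a log2 fold change of 1.47 (edgeR adjusted p = 0.000813).

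Of the peptidoglycan list, around Pglyrp1, 5 of 9 tested genes fell and 2 rose. Nod1 and Nod2, the cytosolic receptors for peptidoglycan fragments, moved in opposite directions. Nod1 had 5.40 ± 0.293 CPM in wild type cGAMP, against 15.7 ± 2.07 CPM in wild type control. Nod2 had 1.40 ± 0.434 CPM (118 counts) in wild type cGAMP, against 0.378 ± 0.264 CPM (32 counts) in wild type control. In labelled Tmem173-/- cells Nod2 had 0.927 ± 0.453 CPM after cGAMP and 0.704 ± 0.393 CPM in control. Its response did not differ significantly between the genotypes (edgeR test of the difference, adjusted p = 0.155), so the Nod2 rise rests on low counts. Tlr2, a receptor for bacterial lipoproteins, fell by 1.22 and Pglyrp2 by 1.07 on the log2 scale. In the CAP list, around Crisp3, 2 of 4 tested genes fell and 0 rose, with log2 fold changes of -3.52 for Crisp1 and -0.86 for Glipr1.

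The semaphorin list, around Sema5a, held 20 tested genes, of which 6 rose, 5 fell and 9 did not pass. Nrp1, a co-receptor of class 3 semaphorins, fell by 2.93 on the log2 scale and had 0.203 ± 0.127 CPM in wild type cGAMP, against 1.57 ± 0.481 CPM in wild type control. Plxnd1, a plexin receptor, rose to 139 ± 24.7 CPM in wild type cGAMP, against 29.4 ± 5.89 CPM in wild type control. Sema4c rose by a log2 fold change of 2.69. Sema4f had 163 counts in wild type cGAMP, against 2 in wild type control, a ratio of 81.7 with an exact 95% counting interval of 22.2 to 680.1.

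The remaining lists were mixed or moved little. Among adhesion receptors related to Adgre1, 3 of 8 tested genes rose and 1 fell; Adgrg6 rose by a log2 fold change of 2.18, and Adgre5, which encodes CD97, fell by 1.08. Among the ligases related to Rnf150, 2 of 6 tested genes rose and 2 fell, with Znrf3 at 0.99 and Rnf130 at -1.07. Of 20 Wnt ligands and secretion genes 5 were tested and 1 passed, Wls, the carrier that brings Wnt proteins to the surface, which fell by 0.30. None of 7 tested Wnt receptors and inhibitors passed. Among 17 tested genes of beta-catenin signalling 3 rose and 3 fell, with Lef1 at -1.10, Dvl1 at 1.21 and Myc at 1.08.

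The nearest tested gene on each side was examined for all 8 loci, which gave 16 neighbours. Of these 4 fell and 1 rose in wild type cells, no larger a share than among all genes tested. At the Crisp3 locus both neighbours fell, Crisp1 at 51470 bp and Pgk2, a testis-type glycolytic kinase, at 13137 bp. Crisp1 had 2.53, 2.66 and 3.40 CPM in labelled Tmem173-/- cGAMP and 2.65, 4.30 and 3.21 CPM in labelled Tmem173-/- control. It had 0.255, 0.275 and 0.0712 CPM in wild type cGAMP, against 1.28, 2.85 and 2.90 CPM in wild type control. Pgk2 had 77 counts in labelled Tmem173-/- cGAMP, 105 in labelled Tmem173-/- control, 0 in wild type cGAMP and 84 in wild type control, so that it was at least 27.9-fold lower after cGAMP, taking 3 counts summed over its libraries as the floor. Thus 3 adjacent tested genes on chromosome 17, all on the minus strand, had lower counts in wild type cGAMP. Of these, Crisp3 was chosen for its fall, and Crisp1 counts may include reads of Crisp3, as given above. Pgk2 lies beyond the 3' end of Crisp3. Whether the counts of the 3 genes come from separate transcripts was not tested.

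At the Sema5a locus, Snhg18, a long non-coding RNA on the opposite strand, had 3.01, 3.50 and 3.53 CPM in labelled Tmem173-/- cGAMP and 3.76, 2.62 and 2.30 CPM in labelled Tmem173-/- control. It had 0.437, 0.585 and 0.285 CPM in wild type cGAMP, against 1.71, 2.29 and 1.91 CPM in wild type control, a log2 fold change of -2.16 (edgeR adjusted p = 3.5e-05). The start sites of this pair are the ones on each side of the interval printed above. Not every close neighbour passed. Ccdc61, whose 3' end faces that of Pglyrp1 at 424 bp, had a log2 fold change of -0.28 (edgeR adjusted p = 0.0813). Wnt10b, 11707 bp from Wnt1, had 10.9 ± 1.44 CPM in wild type cGAMP, against 13.5 ± 5.41 CPM in wild type control, and did not pass. Vav1, beside Adgre1, fell by 0.79, and D030056L22Rik, beside Anxa1, rose by 0.60 on the log2 scale. The plot of neighbours sets these values out by locus.

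**Figure D4:**
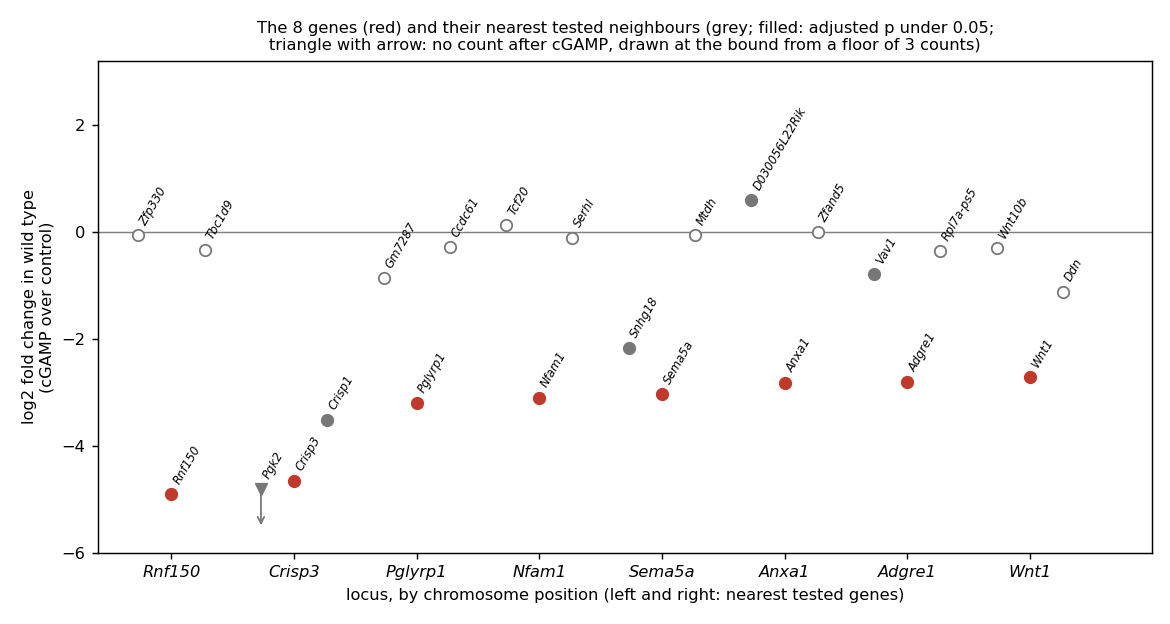
Fitted log2 fold change in wild type cells, cGAMP over control, of the 8 genes (red) and of the nearest tested gene on the lower and higher coordinate side of each (grey, filled where adjusted p was under 0.05). Pgk2 and Crisp1 beside Crisp3 and Snhg18 beside Sema5a lie below -2; Pgk2 is drawn at the bound given by a floor of 3 counts.

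RefSeq promoter entries were found for 6 of the 8 genes, and the 250 bases before each start were searched on both strands. Apart from Crisp3, a TATA box stood at -32 to -27 in Anxa1. In Nfam1 the motif was matched only on the opposite strand, so that it reads TTTATA along the gene. It stood there at -56 to -51 before 1 of 3 listed starts, at chr15:83023138 inside the gene. On either strand, 12.4% of the 32851 promoters in the table hold this motif. The E-box CAGCTG, in Crisp3 alone of the 6, is in 13.0% of all promoters. An EBF1-type motif, CCCNNGGGA, was found in Sema5a at -201 to -193 and in Wnt1 at -114 to -106, and in 5.60% of all promoters. The interferon-stimulated response element GAAANNGAA (7.13% of all promoters), the gamma-activated site TTCNNNGAA (7.02%), the PU.1 motif GAGGAAGT (2.44%) and the FOXO motif GTAAACA (3.17%) were not in any of these windows. A match is a match of letters only. The windows also ranged widely in composition, from a GC content of 35.6% in Crisp3 to 72.0% in Sema5a, around a median of 52.4% for all promoters.

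The genes whose log2 CPM followed each of the 8 most closely were sought among 11714 genes over the 12 libraries. Rnf150 was matched by Mxd4 (Pearson r 0.997) and Vcl, Crisp3 by Fcrla (0.997) and Plekho1, Pglyrp1 by Pdk2 (0.992) and Sgsh, and Nfam1 by 2610008E11Rik (0.998) and Fmo5. Sema5a was matched by Tbc1d5 (0.995) and Trps1, Anxa1 by S100a6 (0.991) and Bex3, Adgre1 by Mindy2 (0.996) and Ppp3ca, and Wnt1 by Fibcd1 (0.981) and C430042M11Rik. No gene of the 8 was among the closest matches of another. These r values describe the shared split of the 3 wild type cGAMP libraries from the other 9 and carry no p.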

How the data were processed

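RNA-seq of 12 libraries was re-analysed from the deposited tables. The authors deposited whole-number counts per gene, and FPKM computed from the same counts; the 2 count tables hold the same values. Per the submitters' processing notes, fastp, STAR and featureCounts were used with GRCm38/mm10; versions, strandedness and annotation are not given in the sources used here. Deposited counts were analysed with edgeR 4.0.16 in R 4.3.3 over all 12 libraries: filterByExpr (14473 genes left), TMM, a mean for each of 4 groups, robust quasi-likelihood tests, Benjamini-Hochberg adjustment over all tested genes, threshold 0.05. CPM are TMM-scaled. Intervals of 95% use the SE from that fit. Alternatives used DESeq2 1.42.0, limma-voom (limma 3.58.1), other scalings, no filter, log2(FPKM + 1) and log2(FPKM + 0.1), which understate changes of low genes, a replicate block, and libraries left out. The fits were tested on simulated data.

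The 8 genes, their relatives and the cell type lists were chosen with earlier results of these data known. Named relatives were up to 4 per list with the largest wild type change among those past the threshold with at least 1 CPM in a wild type group. Neighbours were the nearest tested gene on either side, and matches the 2 highest Pearson correlations. Counting intervals and floors cover counting error only, as PCR copies were not separated from molecules.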

Additional observations from a re-analysis of the deposited data

Results flagged for a closer look

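For 27 of the 31 named relatives of the 8 genes, the response to cGAMP differed between cells labelled Tmem173-/- and wild type cells by a test of the difference itself (edgeR quasi-likelihood test, largest adjusted p = 0.0403), as it did for 31.6% of all tested genes. These relatives were named for their large wild type changes, and 0 genes passed in cells labelled Tmem173-/-, so the choice largely fixed this count and nothing is read from it. Values are the Tmem173-/- response minus the wild type response on the log2 scale, so a positive value means a fall in wild type cells that was smaller or not seen in cells labelled Tmem173-/-. The positive differences around Crisp3 and Pglyrp1 were 3.28 for Crisp1, 1.02 for Glipr1, 1.47 for Nod1, 1.22 for Tlr2 and 1.03 for Pglyrp2. Around Nfam1 they were 1.47 for Syk, 1.44 for Tyrobp, 1.35 for Cd79b and 0.92 for Rcan1. Around Anxa1 they were 2.80 for S100a6, 2.17 for S100a10 and 1.56 for S100a11. The others were 1.14 for Rnf130, 0.94 for Rnf13, 3.00 for Nrp1, 1.07 for Adgre5, 0.40 for Wls and 1.10 for Lef1.

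Negative differences were -1.18 for Znrf3, -1.97 for Sema4c, -2.26 for Plxnd1, -1.18 for Anxa2, -1.95 for Adgrg6, -1.17 for Dvl1, -1.09 for Myc and -0.72 for Dvl3. Sema4f had -6.33, which rests on 2 counts in wild type control. Each of these 9 genes was higher in wild type cGAMP than in wild type control.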

How the results depend on the processing

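None of the 8 genes was called in the Tmem173-/- response under any of the 22 alternatives, where adjusted p ran from 0.9995 to 1; the smallest unadjusted p was 0.0172, for Wnt1. Over all genes that response had 0 calls with edgeR, and 23 when genes with low counts were kept. The sign of small differences was not stable. Adgre1 turned to 0.00273 with DESeq2, 0.00338 with median of ratios scaling, 0.00291 without the filter and 0.00469 with the libraries of a single genotype, and the cause was not tested. With each library left out in turn, Adgre1 ran from -0.154 to 0.0908, Rnf150 from -0.0161 to 0.0730, Nfam1 from -0.0665 to 0.293 and Anxa1 from -0.119 to 0.271. Wnt1 moved most, from -0.772 without Tmem173-/- cGAMP replicate 1 to -0.149 without Tmem173-/- cGAMP replicate 2, around -0.41 with all libraries, and it also stood at -0.243 without Tmem173-/- control replicate 1. Crisp3 ran from 0.0455 to 0.346. The remaining 164 of 176 values kept their sign.

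The wild type falls, by which the 8 genes were chosen, are given as sizes only. On log2(FPKM + 1), whose pseudocount compresses low values, Rnf150 had -1.50, Nfam1 -1.84, Sema5a -1.10 and Wnt1 -1.33. Over all genes, the main edgeR fit called 6921 in the wild type response, with 5543 to 7749 under the alternatives.

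Same-numbered libraries of a genotype correlated in their deviations from group means by 0.288, 0.0958 and 0.170 in Tmem173-/- and 0.300, 0.218 and 0.0834 in wild type. Each library correlated best with its own number, as paired libraries would. The labels do not state pairs, so the main fit leaves the numbers out. Whether they mark a shared mouse was not tested. With a replicate block, 0 genes were called in the Tmem173-/- response and 7749 in the wild type response. In that fit Wnt1 had a log2 fold change of -0.461 in cells labelled Tmem173-/- (edgeR quasi-likelihood test, unadjusted p = 0.0184, adjusted p = 0.9995).

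With 3 libraries a group, intervals of the Tmem173-/- response leave room for changes down to a ratio of 0.489 for Wnt1. Rnf150 rests on 37 counts over the wild type cGAMP libraries.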
